A study of Mus musculus with 38 samples.

Results

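The 37 genes described here encode the machinery that folds, checks and exports secreted and membrane proteins at the endoplasmic reticulum (ER). They were listed by name, with earlier results of these data known, and all 37 were found among the 23700 rows of each deposited gene table. By role they are 11 chaperones and cochaperones, 4 disulfide isomerases, 9 subunits of the protein channel and of signal peptidase, 3 ER stress sensors and factors, 7 genes of ER-associated degradation and 3 genes of vesicle transport and retrieval.

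A secreted protein enters the ER through the Sec61 channel, loses its signal peptide to signal peptidase, and is folded by BiP (gene Hspa5), GRP94 (Hsp90b1), the lectins calnexin (Canx) and calreticulin (Calr) and the disulfide isomerases. Proteins that fail to fold are moved back to the cytosol and degraded, and proteins that leave the ER by mistake are brought back by KDEL receptors. When unfolded proteins build up, the sensors IRE1 (Ern1), ATF6 and PERK start the unfolded protein response: IRE1 splices the Xbp1 transcript, and XBP1 and cleaved ATF6 bind ER stress elements in the promoters of chaperone genes. T helper cells are small cytokine-secreting cells that expand their ER after activation.

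The study asked how STAT proteins and the lineage factors T-bet (gene Tbx21) and GATA3 shape enhancers and expression in mouse CD4 T helper cells. RNA was measured in 14 libraries; the chromatin libraries are not analysed here. All cells were naive CD4 T cells sorted from spleen and lymph nodes of C57BL/6J mice and polarised in culture towards the Th1 lineage, which makes interferon gamma, or the Th2 lineage, which makes IL-4. In the cultures without a vector, labelled 7 days and restimulated through CD3 and CD28 for 2 h (with IL-12 for Th1, IL-4 for Th2), the Th1 libraries were wild type (WT, 2 libraries), STAT4<tm1> (STAT4 KO) and Tbet<tm1> (T-bet KO). The Th2 libraries without a vector were WT and Stat6<tm1> (STAT6 KO). The cultures with a retrovirus, labelled 5 days, were Th1 cells, WT or STAT4 KO, given either the control vector pMY-IRES-hNGFR or a T-bet vector, and Th2 cells, WT or STAT6 KO, given either a control vector or one for GATA3. Each of these groups held 1 library. A further label gives the Th1 vector cultures 7 days and a 2 h restimulation, and none states a restimulation for the Th2 vector cultures. Vector, culture time and restimulation therefore cannot be told apart between vector and no-vector cultures. The labels name no transgenic driver, do not say whether transduced cells were selected, and do not tie libraries to animals or to separate cultures. The p-values thus rest mainly on how far single libraries depart from the sum of the fitted terms. Only WT Th1 had 2 libraries, and the spread between them may be technical.

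ER stress elements are short promoter sequences, and they are shown here because several members that were higher in the vector cultures carry them. The first form searched was ERSE, which reads CCAAT, then any 9 bases, then CCACG. The second was ERSE-II, which reads ATTGG, then any 1 base, then CCACG. Both strands of the 300 bases around each RefSeq gene start (GRCm38.p6) were searched, and 29 members had 30 such promoters. ERSE was found in 9 of the 30 member promoters and in 0.119% of the 32851 promoters in the table, and ERSE-II in 2 of the 30 and in 0.0365% of all. ER stress elements are known from the promoters of chaperone genes, which are among the members. A higher share in the members could thus be foreseen and is not a result of these data. The members with ERSE were Calr, Canx, Creld2, Derl3, Dnajc3, Hsp90b1, Hspa5, Pdia6 and Syvn1, and those with ERSE-II were Dnajb11 and Herpud1. The core TGACGTGG, an element bound by XBP1, was in 2 member promoters (Kdelr3 and Sec24d) and in 0.676% of all. Windows are printed for members that rose in the vector cultures and carry a match wholly before the start, and for Hspa5; this choice was made after the values were seen. Capitals mark the match, and the sequences run 5′ to 3′ on the gene's strand. Hspa5 lies at chr2:34772005-34772063 (plus strand), Calr at chr8:84847055-84847113 (minus), Canx at chr11:50325780-50325838 (minus), Creld2 at chr15:88819500-88819558 (plus), Pdia6 at chr12:17266471-17266529 (plus) and Herpud1 at chr8:94386357-94386407 (plus).
Hspa5: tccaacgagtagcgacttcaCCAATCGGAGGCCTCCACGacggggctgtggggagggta
Calr: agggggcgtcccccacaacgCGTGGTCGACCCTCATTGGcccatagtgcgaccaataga
Canx: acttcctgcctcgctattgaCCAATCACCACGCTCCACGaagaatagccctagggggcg
Creld2: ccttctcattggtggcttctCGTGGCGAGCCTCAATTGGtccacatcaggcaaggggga
Pdia6: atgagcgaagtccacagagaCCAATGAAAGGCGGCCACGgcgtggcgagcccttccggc
Herpud1: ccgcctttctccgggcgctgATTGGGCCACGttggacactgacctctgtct
In Calr and Creld2 the element reads on the opposite strand, so its CCAAT appears as ATTGG at the right end of the capitals. A match of letters is a description and does not show that a factor binds there. Manf, Hyou1, Sec61a1, Ssr2, Spcs3, Atf6, Derl1 and Kdelr2 had no promoter in the table.

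Expression is given as FPKM, fragments scaled to the length of the transcript and the size of the library, so levels can be compared between genes. Hspa5, the most abundant chaperone of the ER, was the highest of the 37 genes in all 14 libraries, at 369 to 624 FPKM with a median of 445. Calr followed with a median of 227 FPKM, then Hsp90b1 with 183, Pdia3 with 124 and Sec61a1 with 122. At the other end, Derl3 reached 0.551 FPKM and Kdelr3 0.636 FPKM at most, and both stayed under 1 FPKM in every library. The estimate of Kdelr3 was marked OK in only 12 of the 14 libraries. Sec24d, a cargo subunit of the COPII coat, had a median of 1.74 FPKM, and the kinase and nuclease Ern1 5.49 FPKM. The summed level of the members was lowest in WT Th1 replicate 2 at 1581 FPKM and highest in STAT4 KO Th1 with the T-bet vector at 2666 FPKM.

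**Figure D1:**
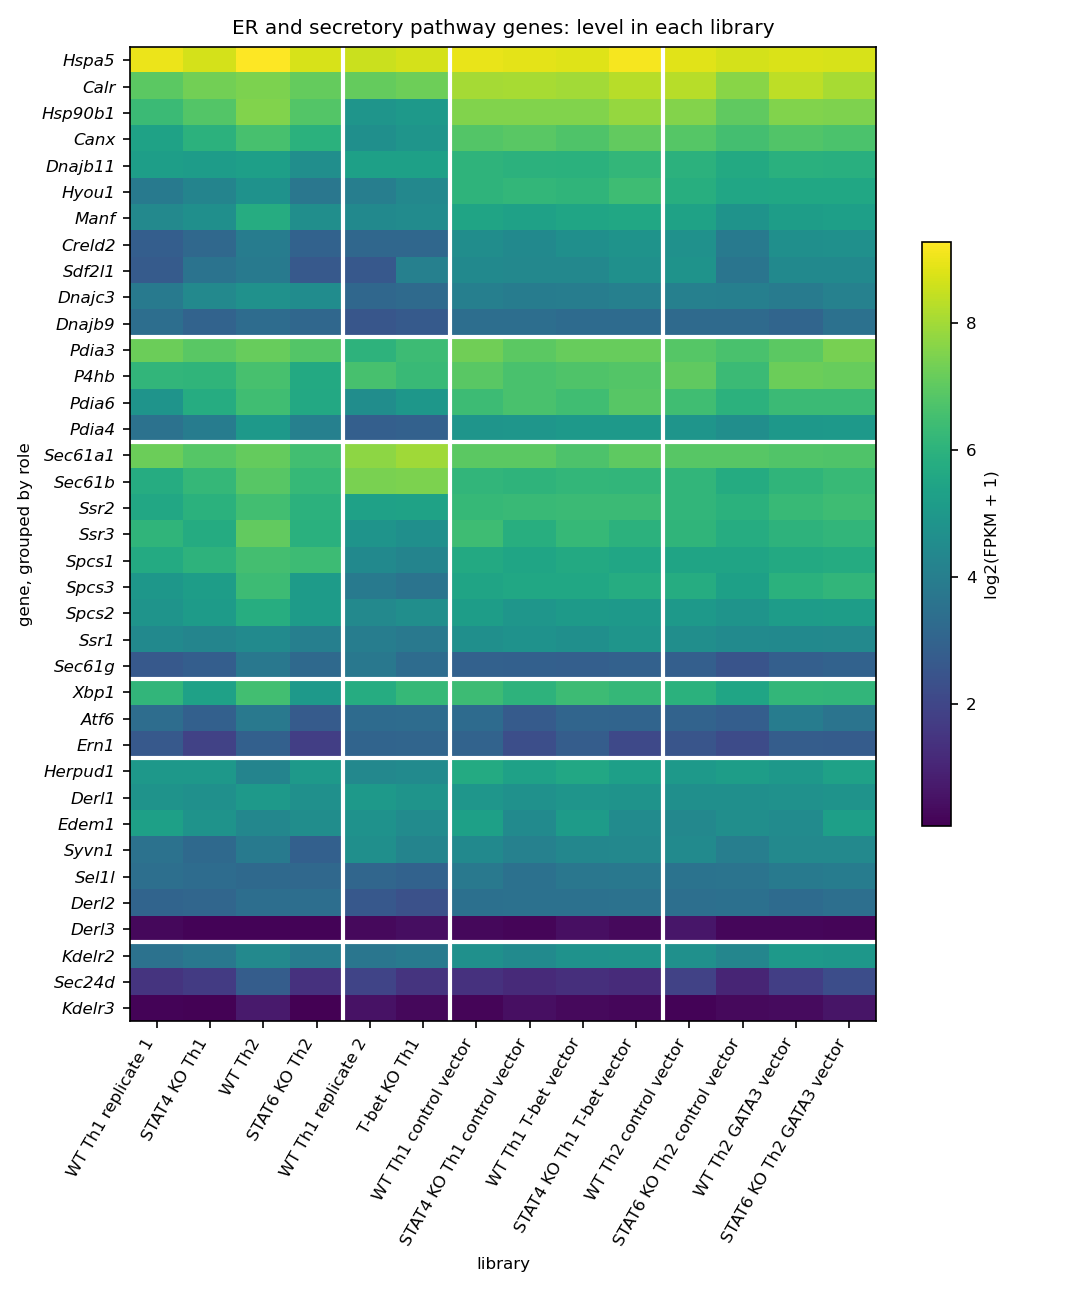
Heat map of log2(FPKM + 1) for the 37 genes (rows, grouped by role) in the 14 libraries (columns; the thick lines set apart WT Th1 replicate 2 and T-bet KO, and the Th1 and Th2 vector cultures). Hspa5 is the brightest row in every library and Derl3 and Kdelr3 are dark throughout; Hyou1, Sdf2l1 and Creld2 are brighter in the vector columns.

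Each library was estimated to hold 21900000 to 38500000 fragments, from the width of the interval that Cufflinks gives around each value. For Hspa5 the distance from the value to the interval's upper bound was 0.84% to 1.11% of the value, and for Pdia4 3.86% to 7.65%; this covers counting error only. WT Th1 replicate 2 and T-bet KO stood apart: across all genes they correlated at 0.976 with each other and at 0.676 to 0.801 with the other 12 libraries, which correlated at 0.856 to 0.99 among themselves. Small RNA genes took 20.9% and 22.4% of all FPKM in this pair and 4.49% to 7.75% elsewhere. Of the targeted genes, Tbx21 read 4.18 FPKM in T-bet KO against 88.4 and 153 in WT Th1, and Stat4 read 17.5 FPKM in STAT4 KO against 60.8 and 15.1 in the 2 WT Th1 libraries, so replicate 2 was as low as the knockout. Stat6 read 34.6 FPKM in the no-vector library labelled STAT6 KO against 35.6 in WT Th2, so this whole-gene value does not separate them. With the control vector Stat6 read 36.1 FPKM in STAT6 KO and 65.9 in WT, and with the GATA3 vector 23.3 and 48.0. Gata3 read 14.3 FPKM in the no-vector library labelled STAT6 KO and 62.1 in WT Th2, and 29.7 and 95.7 with the control vector. Tbx21 read 43.7 and 3.61 FPKM, then 40.4 and 2.43. Under the GATA3 vector Gata3 read 377 FPKM in STAT6 KO and 589 in WT Th2. Under the T-bet vector Tbx21 read 137 FPKM in STAT4 KO and 245 in WT Th1, against 35.1 and 61.0 with the control vector. The 7 measured T cell markers were at 25.3 FPKM or more in every library, while of the markers of other cells Ms4a1, Pax5, Lyz2, Csf1r and Ncr1 were at or near 0. Others were not: the CD8 chain gene Cd8b1 read 1.8 to 5.65 FPKM, Klrd1 of NK cells 0 to 9.44, the mast cell genes Kit 0.0667 to 10.8 and Cpa3 0 to 10.2, and the plasma cell marker Sdc1 0.0424 to 10.1.

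Changes were tested with limma on log2(FPKM + 1) over 11121 genes, in 1 fit over all 14 libraries with additive terms for lineage, vector culture, each knockout and each factor vector. A gene is said to have risen or fallen when its Benjamini-Hochberg adjusted p was under 0.05, and errors are standard errors of the fit. Of the members, 34 were tested. Derl3 did not pass the filter of 1 FPKM in 2 libraries, and Sel1l was left out because its estimate failed in 1 library. Kdelr3 was also left out for a failed estimate, and its values lay under the filter as well. Every comparison was also fitted with a further term that sets WT Th1 replicate 2 and T-bet KO apart. With it, those libraries inform only that term and the T-bet KO term, so no spread between replicates enters the errors. Since 12 of the 13 groups hold 1 library, matched pairs of single libraries are given as differences with no test.

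The vector cultures had higher levels of 10 of the 34 members than the no-vector cultures, and no member fell. These were 6 chaperones or cochaperones (Hyou1, Sdf2l1, Creld2, Canx, Dnajb11 and Calr), the isomerases Pdia6 and P4hb, Herpud1 of ER-associated degradation and the KDEL receptor Kdelr2. This is 29.4% of the members, against 23.4% of all genes that rose and 8.15% that fell, so the share of members that rose is near the background. The median change of the members was 0.29, and that of all genes 0.16; the members' median was 0.11 with upper-quartile scaling, and 0.17 without the WT Th1 control vector library to 0.45 without WT Th2. Hspa5 itself changed by -0.004 ± 0.19 (adjusted p = 0.987), with no-vector libraries at 369 to 624 FPKM and vector libraries at 409 to 566.

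Hyou1 (chr9:44187573-44200452 in mm9), an HSP70-like chaperone that serves BiP as a nucleotide exchange factor, had 12.2 FPKM in the lowest of the 6 no-vector libraries, a median of 16.3 and 26.1 in the highest. The 8 vector libraries ran from 45.4 FPKM through a median of 61.3 to 84.3. The groups did not overlap, and within the vector cultures the 4 Th1 libraries (65.9 to 84.3 FPKM) lay above the 4 Th2 libraries (45.4 to 56.7). The share of all genes whose groups do not overlap was not counted, while 31.5% of all genes were called for vector culture. Its fitted change was 1.77 ± 0.19 on the log2 scale (limma, adjusted p = 0.000657).

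Calr (chr8:87365987-87370830), the soluble lectin chaperone that holds calcium, ran from 123 FPKM through a median of 145 to 174 without a vector and from 197 through 270 to 330 with one. Dnajb11 (chr16:22857918-22879707), a J-domain cochaperone of BiP, ran from 23.9 through 37.2 to 38.8 FPKM and from 49.4 through 61.4 to 71.4. Neither gene's groups overlapped, a pattern whose share over all genes was not counted. The changes were 0.80 ± 0.14 for Calr (limma, adjusted p = 0.00431) and 0.82 ± 0.14 for Dnajb11 (limma, adjusted p = 0.00305).

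Sdf2l1 (chr16:17130231-17132476), a partner of Dnajb11, ran from 5.08 FPKM through a median of 8.22 to 16.0 without a vector and from 11.7 through 20.7 to 26.6 with one. Creld2 (chr15:88650076-88657111), an ER stress-inducible isomerase-like protein, ran from 6.05 through 7.83 to 14.2 FPKM and from 13.2 through 24.3 to 26.6. For both genes the groups overlapped only through the lowest vector library, STAT6 KO Th2 with the control vector, and the highest no-vector library, which was T-bet KO for Sdf2l1 (16.0 FPKM) and WT Th2 for Creld2 (14.2 FPKM); WT Th2 also had 13.5 FPKM of Sdf2l1. The changes were 1.19 ± 0.23 for Sdf2l1 (limma, adjusted p = 0.00652) and 1.17 ± 0.21 for Creld2 (limma, adjusted p = 0.00403).

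The membrane lectin Canx ran from 24.0 FPKM through a median of 50.5 to 95.5 without a vector and from 91.6 through 110 to 134 with one, a change of 0.98 ± 0.27 (limma, adjusted p = 0.0255). Kdelr2, which returns escaped ER proteins, ran from 10.7 through 12.9 to 20.1 FPKM and from 18.5 through 25.8 to 32.2, a change of 0.65 ± 0.16 (limma, adjusted p = 0.0159). In both genes the no-vector library that reached into the vector range was WT Th2. Herpud1, a scaffold of the degradation complex, ran from 17.8 through 25.8 to 31.3 FPKM and from 30.7 through 38.8 to 51.6, a change of 0.63 ± 0.19 (limma, adjusted p = 0.0357). The isomerases Pdia6 (23.0, 38.9 and 87.3 FPKM against 63.2, 84.8 and 117) and P4hb (49.3, 73.2 and 96.4 against 81.0, 117 and 149) overlapped more widely. They changed by 0.81 ± 0.27 (limma, adjusted p = 0.0486) and 0.54 ± 0.18 (limma, adjusted p = 0.0449).

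**Figure D2:**
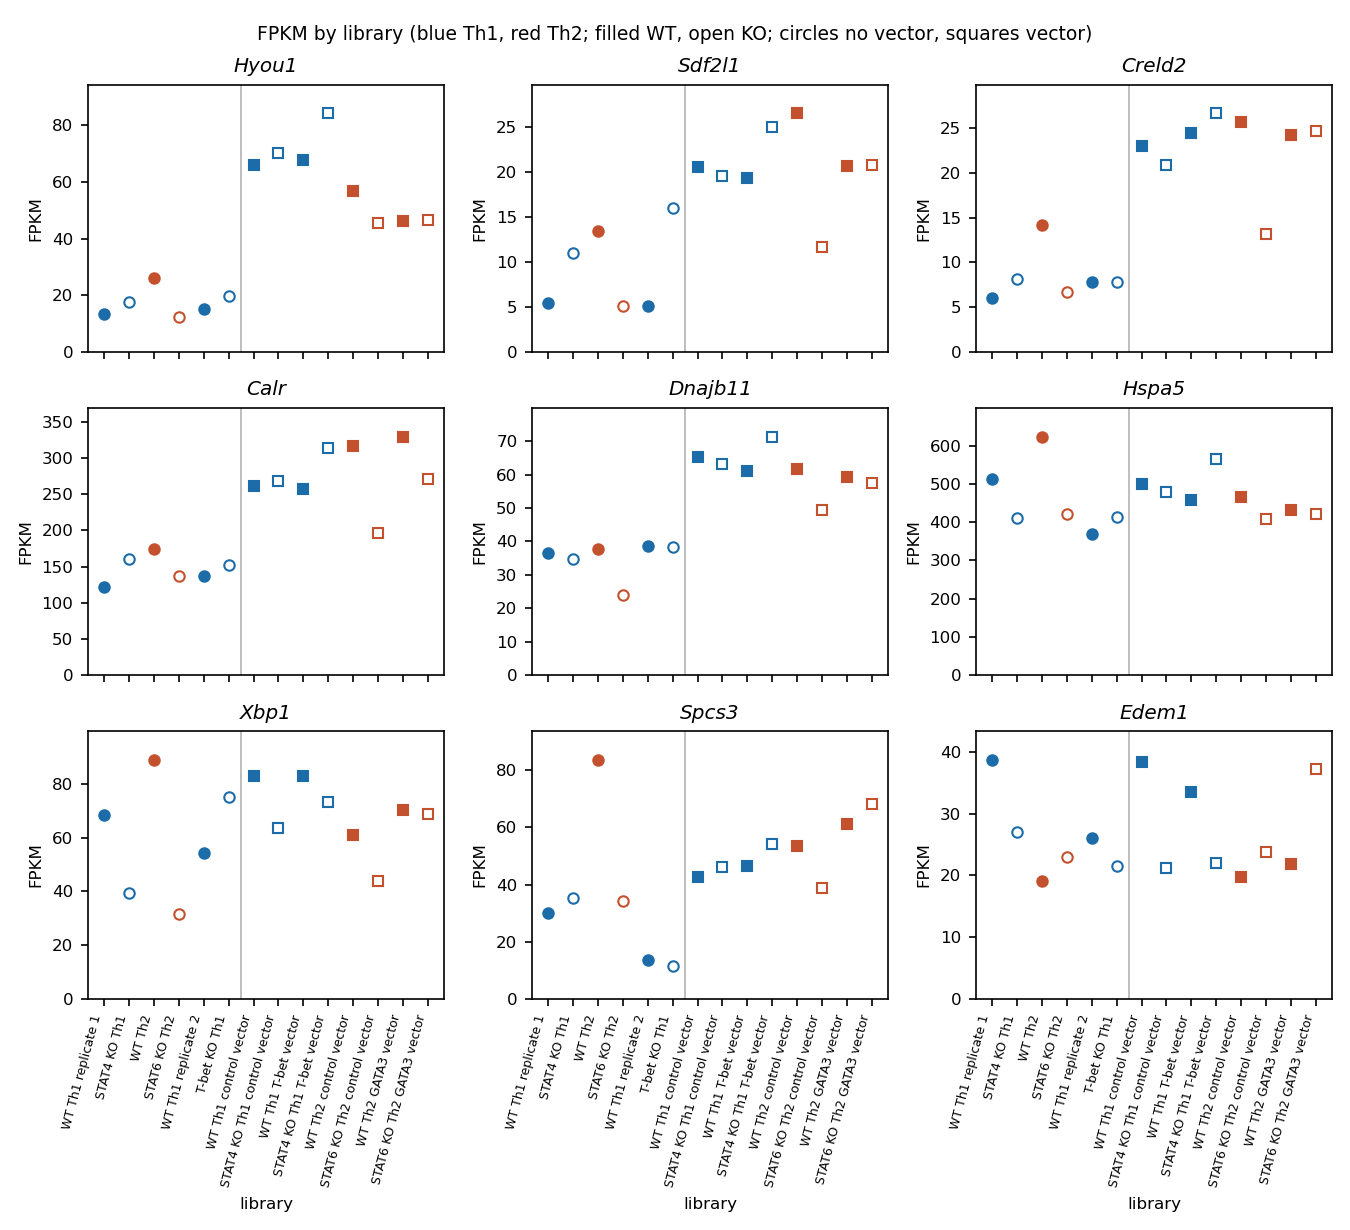
FPKM (y axis, linear from 0) of 9 genes in each of the 14 libraries (x axis); each point is 1 library, blue Th1 and red Th2, filled wild type and open knockout, circles without and squares with a vector. Hyou1, Calr and Dnajb11 separate at the vertical line between no-vector and vector libraries, Hspa5 does not, and WT Th2 without a vector is the highest point of Spcs3.

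With the further term, 11 members rose and 1 fell, against 35.8% of all genes that rose and 15.2% that fell, and the members' median was 0.21. Of the 10 members called before, 9 were called again. Pdia6 was not (0.70 ± 0.26, limma, adjusted p = 0.0594), and Syvn1, the ubiquitin ligase of ER-associated degradation, and Ssr1, a subunit of the translocon-associated TRAP complex, were added. Syvn1 ran from 6.36 through 11.9 to 24.1 FPKM without and from 15.2 through 19.7 to 21.1 with a vector, and only WT Th1 replicate 2 and T-bet KO (24.1 and 17.6 FPKM) reached into the vector range. Its change was 0.71 ± 0.27 (adjusted p = 0.0747 by limma) and 0.90 ± 0.15 with the further term (adjusted p = 0.00329). Ssr1 ran from 12.7 through 16.7 to 21.0 FPKM and from 19.9 through 23.8 to 28.3, with a change of 0.34 ± 0.09 with the further term (limma, adjusted p = 0.0224).

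Spcs1, the small subunit of signal peptidase, was the member that fell with the further term, by 0.65 on the log2 scale (SE 0.17, limma, adjusted p = 0.0185). It ran from 17.5 FPKM through a median of 58.0 to 91.1 without a vector and from 42.4 through 47.5 to 52.1 with one. The only no-vector libraries below the vector range were WT Th1 replicate 2 (20.8 FPKM) and T-bet KO (17.5 FPKM). Its row overlaps the row of Glt8d1. Likewise Pdia6 overlaps Atp6v1c2, Syvn1 overlaps Mrpl49 and Pdia4 overlaps Mir704, and the table lists a pseudogene of Spcs2. Since the sources do not say whether counting used strand, reads of these pairs may have been shared. Sel1l, the partner of Syvn1, was not tested because its estimate failed in WT Th1 replicate 2; the 5 other no-vector libraries had 6.89 to 9.86 FPKM and the vector libraries 10.4 to 14.5.

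The remaining members showed changes on both sides of 0. Among subunits of the channel, Sec61a1 changed by -0.09 ± 0.21, Sec61b by -0.47 ± 0.31 and Sec61g by -0.47 ± 0.26, and of the sensors Xbp1 by 0.27 ± 0.24, Ern1 by 0.15 ± 0.19 and Atf6 by -0.22 ± 0.17; none of these passed the test. The gene-level Xbp1 value does not separate the spliced from the unspliced transcript. Of the 10 tested members with ERSE or ERSE-II in the promoter, 6 rose, with a median change of 0.80 and a range of -0.18 to 1.17. Of the 16 tested members with a promoter but neither element, 2 rose (P4hb and Sdf2l1), with a median of 0.12 and a range of -0.51 to 1.19. Of the 8 without a promoter in the table, 2 rose (Hyou1 and Kdelr2), with a median of 0.27. Over all genes 23.4% rose, with a median of 0.16. These groups were not tested against each other, and the elements are shown because several members that rose carry them.

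The count depended on scaling and on single libraries. Upper-quartile scaling moved the median of all genes from 0.16 to 0.02 and the split of all calls from 2599 higher and 906 lower to 1781 and 1310; Canx, Pdia6, P4hb and Herpud1 were then not called, and 6 members rose. Quantile normalization gave 1782 higher and 1322 lower genes and 9 members higher. Leaving out either the WT or the STAT4 KO Th1 control vector library left 5 members called (14.7%, against 19.4% and 18.6% of all genes called in either direction). With each genotype as a block, in a fit of the 8 control vector and no-vector libraries that was added after the data were seen, 10 members rose and 1, Spcs1, fell, against 33.7% and 14.5% of all genes. Calr, Dnajb11, Sdf2l1, Creld2 and Hyou1 were called in all 14 fits that left out 1 library, Kdelr2 in 12, Canx in 10, Herpud1 in 6, P4hb in 4 and Pdia6 in 3.

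Other lists of the pathway are read against the same background, 23.4% of all genes higher and 8.15% lower. Of 23 tested genes of the PERK and ATF4 branch 9 rose and 1, Atf3, fell; those that rose include Slc7a5 (1.04 ± 0.18, limma, adjusted p = 0.00417) and Slc3a2, which form an amino acid transporter. Of 18 other ER folding genes 4 rose, among them the oxidase Ero1l (1.30 ± 0.22, limma, adjusted p = 0.00319), and 1 fell. For the signal recognition particle and other translocon genes the count was 3 of 14 higher, led by the receptor subunit Srprb (1.20 ± 0.14, limma, adjusted p = 0.000841). N-glycosylation had 5 of 19 higher and 1 lower, other ER-associated degradation 4 of 16 higher and 1 lower, and ER to Golgi vesicle transport 5 of 26 higher. Cytosolic and mitochondrial chaperones had 9 of 18 higher and none lower, among them Hspa1a (3.74 ± 0.49) and Hspa1b (3.60 ± 0.47), near-identical copies whose reads cannot be divided with certainty, and Hspd1 (1.42 ± 0.17).

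Markers of T cells and of recent T cell receptor signalling also moved between these cultures. Of 7 tested T cell markers 4 fell (Cd2, Cd3d, Cd3g and Lck), and their summed level was 1400 to 1700 FPKM without and 680 to 931 with a vector. Of 13 early response genes 4 fell (Egr2, Egr3, Fosb and Tnf), with sums of 2850 to 9270 FPKM without and 2930 to 5820 with a vector. B and plasma cell markers summed to 0.426 to 1.55 and 1.77 to 11.1 FPKM, where Ms4a1, Pax5 and Igj were at or near 0 in all libraries and Sdc1 reached 10.1. CD8 and NK cell markers summed to 4.13 to 13.3 and 1.84 to 3.9 FPKM, and myeloid and mast cell markers to 2.86 to 13.4 and 1.11 to 14 (Kit reached 10.8 and Cpa3 10.2). Their part in the members' changes was not tested. In bulk RNA, fewer cells of a type and less RNA per cell cannot be told apart.

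**Figure D3:**
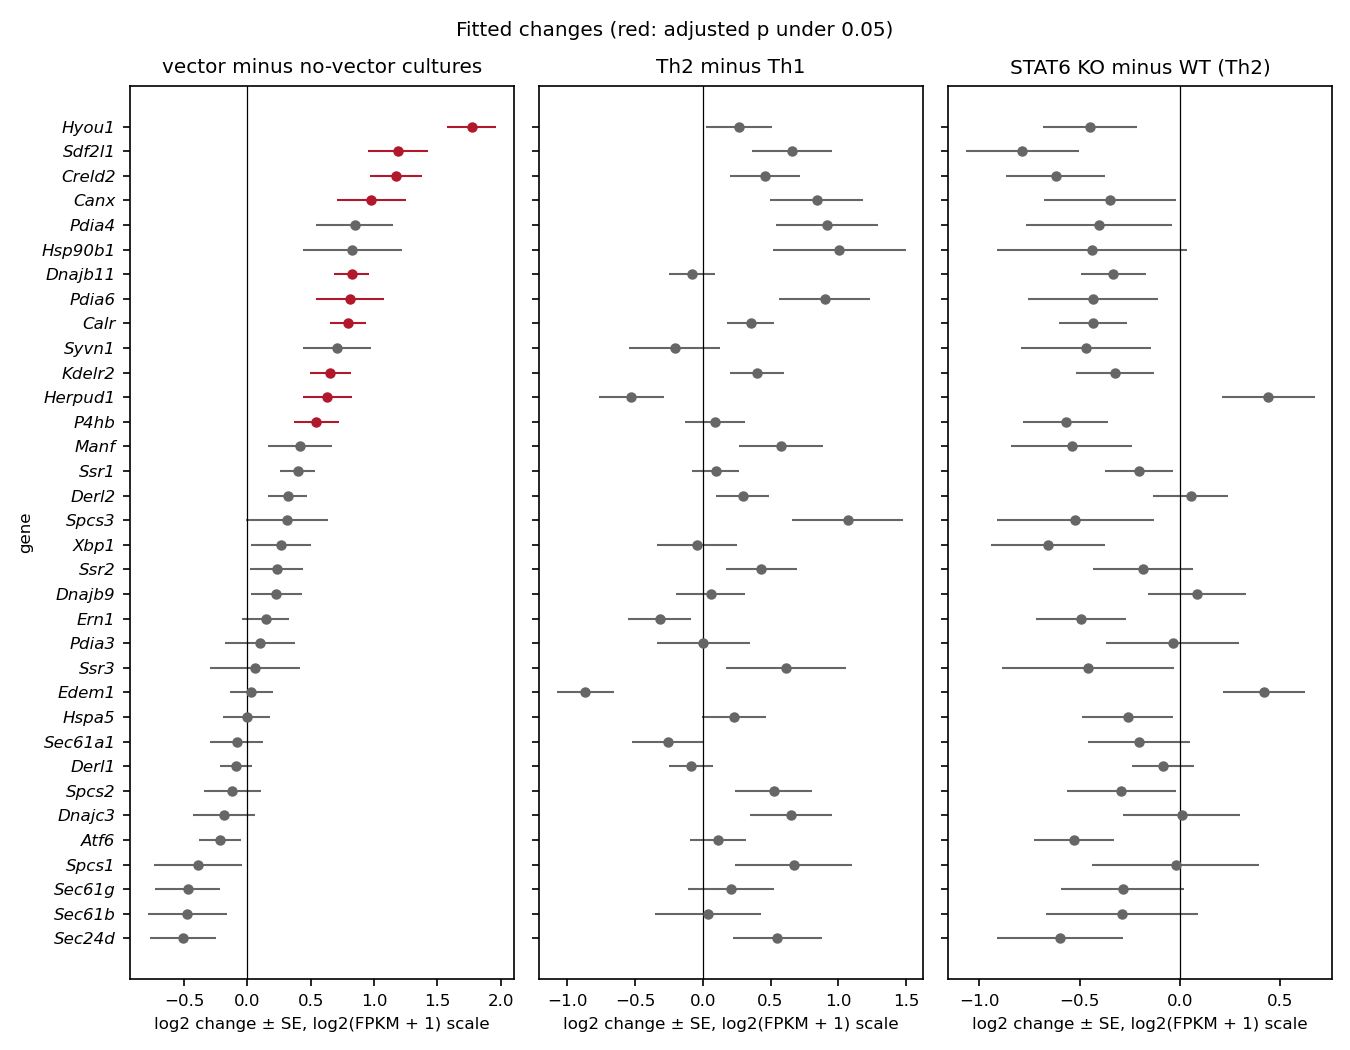
Fitted log2 changes (points) with standard errors (bars) of the 34 tested genes for vector against no-vector cultures, Th2 against Th1 and STAT6 KO against WT in Th2; red marks an adjusted p under 0.05. Red points occur in the vector panel only, 10 of 34, while 26 of 34 points lie above 0 for lineage and 29 of 34 below 0 for STAT6 KO.

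Between the lineages, no member rose or fell in the fit over all cultures, and 3.21% of all genes were called. An unadjusted p under 0.05 was found for 5 members, 14.7%, against 19.5% of all genes. Of the 34 estimates 26 were higher in Th2, with a median of 0.28 against -0.04 for all genes; without the WT Th2 library 16 were, with a median of -0.02. By role, 10 of 11 chaperones, 4 of 4 isomerases and 8 of 9 channel and signal peptidase genes had positive estimates, while 1 of 5 degradation genes did. The largest were Spcs3, the glycosylated subunit of signal peptidase (1.07 ± 0.41, limma, adjusted p = 0.203), Hsp90b1 (1.01 ± 0.49, adjusted p = 0.296) and Pdia4 (0.92 ± 0.38, adjusted p = 0.23). With 1 library left out Spcs3 ranged from 0.45 (without WT Th2) to 1.36, Hsp90b1 from 0.52 (without WT Th1 replicate 2) to 1.46 and Pdia4 from 0.32 (without WT Th2) to 1.25; each upper value came without the WT Th1 control vector library.

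The matched pairs of WT libraries differed in size. Without a vector, the WT Th2 library exceeded WT Th1 replicate 1 in 29 of 34 members, by a median of 0.84, and 12 members were at least 2-fold higher. That is 35.3% of the members, against 8.95% of all genes in the same pair, whose median was 0.02. The 12 were the isomerases Pdia6 (1.62) and Pdia4 (1.54), the signal peptidase subunits Spcs3 (1.45) and Spcs2 (1.0), the channel subunits Sec61g (1.10) and Sec61b (1.09), the chaperones and cochaperones Manf (1.39), Canx (1.23), Hsp90b1 (1.19), Sdf2l1 (1.16) and Creld2 (1.11), and Sec24d (1.34). Against WT Th1 replicate 2 the channel subunits did not differ in this way. Sec61b read 172.7 FPKM there and 116.4 in WT Th2, and Sec61g 12.47 and 12.54. The others of the 12 were lower in replicate 2 than in WT Th2. With the control vector, WT Th2 and WT Th1 differed by a median of -0.07, and no member was 2-fold apart in either direction.

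For Spcs3 the level was 29.9 FPKM in WT Th1 replicate 1, 13.6 in replicate 2 and 83.7 in WT Th2, and with the control vector 42.7 in Th1 and 53.6 in Th2. Pdia4 read 10.5, 6.15 and 32.4 FPKM without a vector, and 28.2 in Th1 and 28.6 in Th2 with the control vector. Hsp90b1 read 81.1, 28.2 and 186 FPKM, and then 187 and 190. In each of these genes WT Th2 without a vector lay within or above the range of the vector cultures and WT Th1 without a vector lay below them. The WT Th1 replicates themselves differed by a median of -0.25 over the members and by up to 1.66 for 1 member, Sec61b, so a single pair carries a wide error.

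A term for lineage by vector culture, added after the data were seen, tested the difference between the pairs. It called no member and 0% of all genes, also with the further term (0%). Of the members, 29 of 34 had a negative estimate with a median of -0.53, and 6 had an unadjusted p under 0.05: Pdia4 (-1.20 ± 0.47), Pdia6 (-1.15 ± 0.39), Canx (-1.04 ± 0.43), Manf (-1.0 ± 0.38), Ssr2 (-0.81 ± 0.32) and Kdelr2 (-0.61 ± 0.25). Over all genes 620, or 5.58%, had an unadjusted p under 0.05. With the further term these numbers were 9 members and 1870 genes, or 16.8%. The summed level of early response genes of the T cell receptor moved with the same pair: 8240 FPKM in WT Th1 replicate 1 and 2850 in WT Th2 without a vector, and 3540 and 2930 with the control vector. The mast cell protease gene Cpa3 read 0.0389 and 10.2 FPKM in that no-vector pair and 0 and 0.546 with the control vector. The mast cell gene Kit went the other way, with 10.8 and 0.0667 FPKM, then 3.51 and 0.072. The sum of the myeloid and mast cell markers was 13.4 and 11.6 FPKM, then 3.95 and 2.05. The part of either list in the members' difference was not tested.

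Edem1 and Herpud1 went the other way. Edem1, a lectin that hands misfolded glycoproteins to degradation, had 38.8 and 26.1 FPKM in the WT Th1 libraries and 19.1 in WT Th2 when no vector was used. Under the control vector it had 38.5 FPKM in WT Th1 and 19.8 in WT Th2, and it had 33.6 in WT Th1 with the T-bet vector and 21.9 in WT Th2 with the GATA3 vector. Every WT Th1 library lay above every WT Th2 library, and the share of all genes with such a separation was not counted. Its change was -0.87 ± 0.21 (limma, adjusted p = 0.0649, the lowest of the members) and -1.02 ± 0.14 with the further term (limma, adjusted p = 0.0161). Herpud1 had 30.3 and 19.8 FPKM in WT Th1 and 17.8 in WT Th2, and 51.6 against 31.1 with the control vector. It changed by -0.53 ± 0.24 (limma, adjusted p = 0.268) and by -0.73 ± 0.15 with the further term (limma, adjusted p = 0.0409). With the further term these were the 2 members that fell, 5.88% of the members against 5.26% of all genes, and none rose.

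STAT6 KO in Th2 cells called no member, with 0.962% of all genes called, and none with the further term, with 2.71% of all genes called. Of the 34 members 29 had negative estimates, with a median of -0.34 against 0.04 for all genes. Without the WT Th2 library 22 were negative and the median was -0.08, and without the WT Th2 GATA3 vector library the median was -0.49. An unadjusted p under 0.05 was found for 6 members, 17.6%, against 11% of all genes, and with the further term for 9, 26.5%, against 20.8%. All 9 channel and signal peptidase genes, all 4 isomerases and all 3 stress sensors and factors had negative estimates. The largest were Sdf2l1 (-0.79 ± 0.28, limma, adjusted p = 0.318), Xbp1 (-0.66 ± 0.28, adjusted p = 0.445) and Creld2 (-0.62 ± 0.25, adjusted p = 0.389). Without WT Th2 these were -0.55, -0.26 and -0.38, and without the WT Th2 GATA3 vector library -1.18, -0.97 and -0.94. Herpud1 (0.44 ± 0.23) and Edem1 (0.42 ± 0.20) had the highest estimates.

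Among the 3 matched pairs, the one without a vector differed most. There the library labelled STAT6 KO was lower than WT Th2 in 32 of 34 members, by a median of -0.64, and 9 members, 26.5%, were at least 2-fold lower, against 6.07% of all genes. These were Xbp1 (-1.47), Sec24d (-1.40), Spcs3 (-1.27), Sdf2l1 (-1.23), Ssr3 (-1.16), Manf (-1.15), Ern1 (-1.12), Atf6 (-1.07) and Hyou1 (-1.04), so all 3 stress sensors and factors were among them. This pair and the lineage pair without a vector share the WT Th2 library. With the control vector, 29 of 34 members were lower by a median of -0.32, and 1, Sdf2l1 (-1.12), was 2-fold lower, against 2.43% of all genes. With the GATA3 vector, 13 of 34 were lower, the median was 0.03, and none was 2-fold apart.

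Xbp1, the transcription factor that drives chaperone genes in secretory cells, read 89.0 FPKM in WT Th2 and 31.5 in the library labelled STAT6 KO without a vector. It read 60.9 and 43.8 FPKM with the control vector, and 70.4 and 68.9 with the GATA3 vector. Sdf2l1 read 13.5 and 5.15 FPKM, then 26.6 and 11.7, then 20.7 and 20.8. Creld2 read 14.2 and 6.73 FPKM, then 25.7 and 13.2, then 24.2 and 24.6. In all 3 genes the knockout was lower in the first 2 pairs and level with WT when both carried the GATA3 vector.

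A term for STAT6 KO by GATA3 vector, also added after the data were seen, called no member and 0% of all genes, and with the further term no member and 0.045% of all genes. Of the members 33 of 34 had a positive estimate, with a median of 0.55, and 1, Sec24d (1.57 ± 0.48), had an unadjusted p under 0.05, against 1.58% of all genes. With the further term 4 did (Sec24d, P4hb, Pdia3 and Syvn1), 11.8%, against 4.58% of all genes. The early response genes summed to 7380 FPKM in the no-vector library labelled STAT6 KO and 2850 in WT Th2. The sums were 5820 and 2930 FPKM under the control vector, and 4290 and 3020 under the GATA3 vector. Their part in these differences was not tested. Genes of the PERK and ATF4 branch had negative STAT6 KO estimates in 22 of 23, with a median of -0.52 and none called, and none of the other pathway lists had a call for STAT6 KO.

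**Figure D4:**
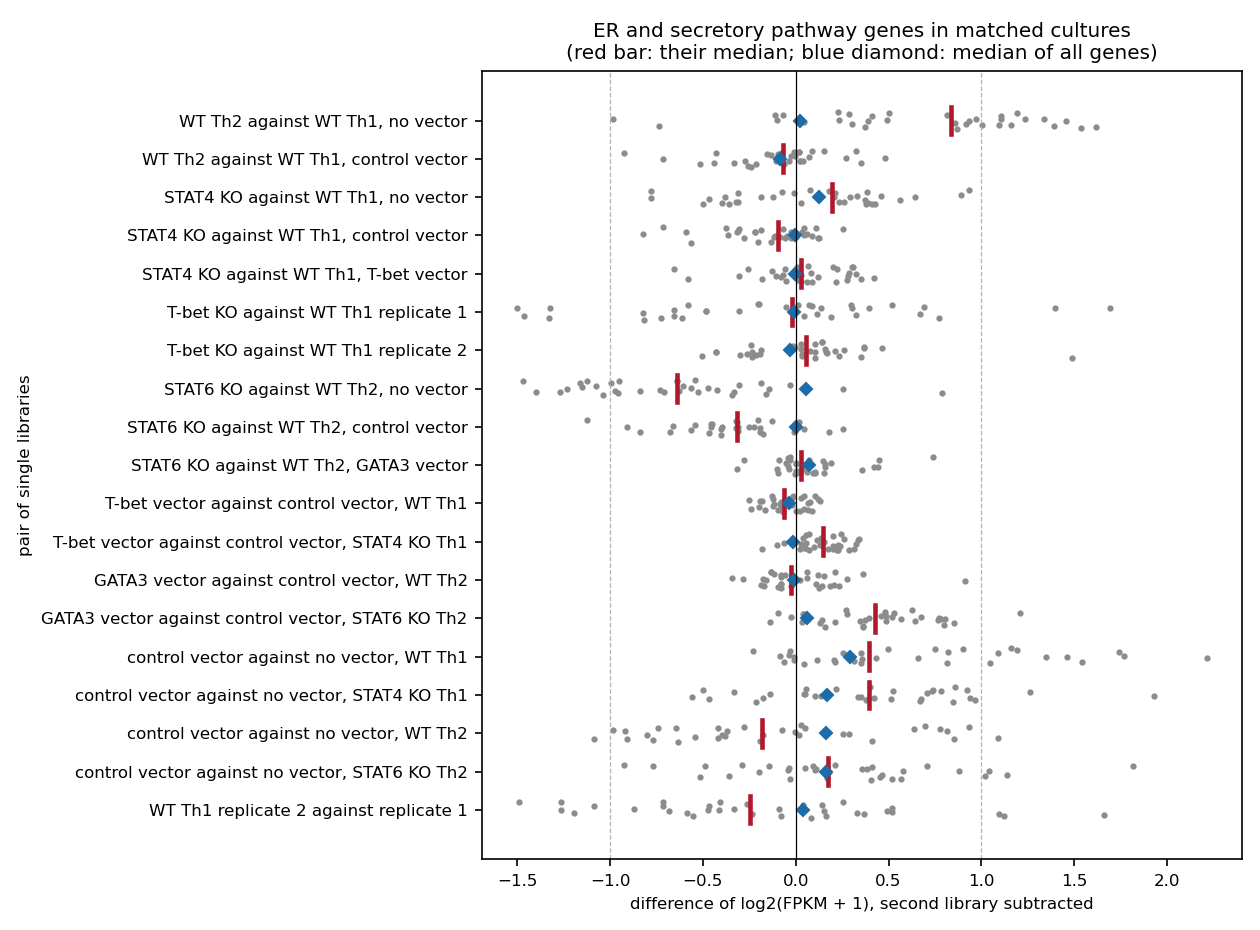
Differences of log2(FPKM + 1) between the libraries of 19 matched pairs for the 34 tested genes (grey points), with their median (red bar) and the median of all genes (blue diamond); dashed lines mark 2-fold. The members' median is 0.84 for WT Th2 against WT Th1 without a vector and -0.64 for STAT6 KO against WT Th2 without a vector; with the control vector these medians are -0.07 and -0.32.

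The GATA3 vector called no member, with 1.05% of all genes called, and none with the further term, with 2.9% of all genes called; 1 member had an unadjusted p under 0.05, against 8.57% of all genes. The largest estimates were Atf6 (0.80 ± 0.23, limma, adjusted p = 0.229), Sec24d (0.50 ± 0.36) and P4hb (0.50 ± 0.24). Atf6 had 7.04 FPKM with the control and 14.2 with the GATA3 vector in WT Th2, and 6.02 and 11.2 in STAT6 KO. P4hb had 129 and 149 FPKM, and 81.0 and 139; Sec24d had 2.64 and 2.45, and 1.04 and 3.71. Sec24d was thus higher in the STAT6 KO pair and not in the WT pair, and without the STAT6 KO GATA3 vector library its estimate was -0.29. In WT Th2 the members' median difference was -0.02, and in STAT6 KO it was 0.43 with 31 of 34 higher; there 1 member, Sec24d (1.21), was 2-fold higher, against 4.91% of all genes. Outside the members, the folding oxidase Ero1l (1.62 ± 0.30, limma, adjusted p = 0.0453), the cochaperone Bag3 (1.93 ± 0.30, limma, adjusted p = 0.0231) and the plasma cell marker Sdc1 (2.15 ± 0.21, limma, adjusted p = 0.0035) rose. Sdc1 had 1.02 FPKM with the control and 10.1 with the GATA3 vector in WT Th2, and 0.572 and 5.69 in STAT6 KO. Cpa3 read 0.546 and 9.64 FPKM in that WT pair and 0.0211 and 2.34 in the knockout pair, and the myeloid marker Itgax 0.711 and 3.34, then 0.0895 and 0.608. Other genes of these lists went both ways in the WT pair, all under 1 FPKM. Among those higher were Kit (0.072 and 0.328 FPKM) and Itgam (0.336 and 0.49). Among those lower were Fcgr3 (0.155 and 0.0749 FPKM), Cd14 (0.0917 and 0.0443), Mcpt4 (0.114 and 0.0366) and Igj (0.0312 and 0.0151). The part of these markers in the members' values was not tested.

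STAT4 KO in Th1 cells called no member (0.728% of all genes called, and 3.49% with the further term, again with no member); 2 members, 5.88%, had an unadjusted p under 0.05 in each fit, against 15.7% and 24.7% of all genes. The members' median was 0.06, and the roles took different signs: all 11 chaperones and cochaperones had positive estimates in the additive fit, though Hspa5 (-0.02) and Dnajb9 (-0.13) did not with the further term, and all 3 stress sensors and factors had negative ones. Ern1 had the largest estimate, -0.78 ± 0.21 (limma, adjusted p = 0.137). It read 5.30 and 7.13 FPKM in WT Th1 and 2.67 in STAT4 KO without a vector. The WT and knockout values were 7.06 and 3.91 with the control vector and 5.81 and 3.33 with the T-bet vector. Every knockout library lay below every WT library, and the share of all genes that separate in this way was not counted. Pdia6 (0.69 ± 0.31, adjusted p = 0.32) read 27.8 and 23.0 FPKM in WT Th1 and 54.0 in STAT4 KO, then 82.8 and 98.7, then 86.8 and 117. Hsp90b1 (0.63 ± 0.45, adjusted p = 0.503) read 81.1 and 28.2 FPKM in WT Th1 and 112 in STAT4 KO, then 187 and 184, then 185 and 224.

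Edem1 was lower in STAT4 KO in each pair, with 27.1 FPKM against 38.8 and 26.1 in WT Th1, then 21.3 against 38.5 and 22.1 against 33.6; replicate 2 lay just below the knockout of the first pair. Its estimate was -0.51 ± 0.19 (limma, adjusted p = 0.254), -0.64 ± 0.13 with the further term (limma, adjusted p = 0.0517) and -0.64 without WT Th1 replicate 2. The paired medians were 0.19, -0.10 and 0.03, and no member was 2-fold apart in any of these pairs.

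T-bet KO called no member, with 0.018% of all genes called, and none with the further term, with 0.881%. In each fit 1 member, Sdf2l1, had an unadjusted p under 0.05. That is 2.94% of the members, against 14.5% and 12.8% of all genes. The largest estimates were Spcs1 (-1.28 ± 0.59, limma, adjusted p = 0.337), Sdf2l1 (1.22 ± 0.40, adjusted p = 0.337) and Ssr3 (-1.15 ± 0.61, adjusted p = 0.342). Sdf2l1 read 16.0 FPKM in T-bet KO against 5.47 and 5.08 in WT Th1. Spcs1 read 17.5 FPKM against 51.3 and 20.8, and Ssr3 24.1 against 68.0 and 27.7. For Spcs1 and Ssr3 the T-bet KO library was thus low against replicate 1 and close to replicate 2, with which it stood apart from the other libraries. Without replicate 2, 14 members were called for T-bet KO, 3 higher (Sec61b, Sec61a1 and Syvn1) and 11 lower. That is 41.2% of the members, against 47.7% of all genes called in that fit (20.8% higher and 27% lower). Against replicate 2 the members' median was 0.06, and 1, Sdf2l1 (1.49), was 2-fold higher, against 2.22% of all genes.

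The T-bet vector called no member and 0% of all genes, and with the further term no member and 0.018%. No member had an unadjusted p under 0.05 in either fit, against 1.35% and 4.07% of all genes. The largest estimates were Hsp90b1 (0.49 ± 0.54), Pdia6 (0.46 ± 0.37) and Pdia4 (0.45 ± 0.41). With 1 library left out they ranged from 0.23, 0.27 and 0.18 (without the WT Th1 T-bet vector library) to 0.96, 0.83 and 0.79 (without the WT Th1 control vector library). Hsp90b1 had 187 FPKM with the control and 185 with the T-bet vector in WT Th1, and 184 and 224 in STAT4 KO. Pdia6 had 82.8 and 86.8 FPKM, and 98.7 and 117; Pdia4 had 28.2 and 31.0, and 29.1 and 31.6. The paired medians were -0.06 in WT and 0.15 in STAT4 KO, and no member was 2-fold apart in either pair. The members' fitted median was 0.19 and lay above both, as did the 3 fitted estimates above the differences of their own pairs: -0.02 and 0.29 for Hsp90b1, 0.07 and 0.24 for Pdia6, and 0.13 and 0.11 for Pdia4. The additive term sets the T-bet vector libraries against a level fitted from the other libraries, not against their own controls alone.

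Within each matched genotype, the control vector culture differed from the no-vector culture by an amount that varied with the genotype. In WT Th1 (replicate 1) the median was 0.40 and 10 members, 29.4%, were 2-fold higher, against 13.9% of all genes. STAT4 KO Th1 had a median of 0.39 with 2 members 2-fold higher (Hyou1 1.93 and Creld2 1.26), against 9.33%. STAT6 KO Th2 had a median of 0.17 with 4 members 2-fold higher (Hyou1 1.81, Syvn1, Sdf2l1 and Dnajb11 1.02), against 9.17%. WT Th2 had a median of -0.18 with 1 member 2-fold higher (Hyou1 1.09, against 10.9%) and 1 lower (Spcs1 -1.09, against 8.63%). Hyou1 was the member 2-fold higher in all 4 genotypes.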

How the data were processed

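RNA-seq tables of 14 libraries in 13 groups were used. The authors computed FPKM values with Cufflinks, per the file headers; the submitters' processing notes name TopHat, Cufflinks and mm9, and no source used here gives their versions or the annotation. The deposited FPKM tables hold no counts, so no count test was run, and a log2 change understates that of low genes. From them log2(FPKM + 1) was taken over genes with 1 FPKM in 2 libraries (118 rows with a failed estimate left out) and tested with limma 3.58.1 in R 4.3.3 (lmFit, eBayes with trend; 6 residual degrees of freedom, 5 with the further term). The fit was run on simulated data drawn from its own additive terms and the further term, with independent normal errors. That run cannot show how calls hold where single libraries depart from these terms. The members, gene lists and fits were chosen with earlier results of these data known. Levels or their ranges are given for members called in either fit and for the 3 with the largest estimates per comparison. Of the members past 2-fold in a pair, some are given only as differences or counts. Alternatives were another pseudocount, filter, scaling and prior, and each library left out. RefSeq promoters of GRCm38.p6 were searched for motifs; these coordinates are not mixed with mm9.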

Additional observations from a re-analysis of the deposited data

How the results depend on the processing

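The number of members that passed the test in vector cultures was 6 with upper-quartile scaling, and 5 to 14 when 1 library was left out (5 without the WT or the STAT4 KO Th1 control vector library, 14 without WT Th1 replicate 2, with 19.4%, 18.6% and 53.3% of all genes called). For lineage it was 0 to 2 when 1 library was left out. The 2 calls, 5.88% of the members, came without WT Th1 replicate 2, against 8.62% of all genes. It was also 2 with the further term (6.83% of all genes called) and without both WT Th1 replicate 2 and T-bet KO (8.66%). The main fit called 3.21% of all genes for lineage. For STAT4 KO, the fits without replicate 2 and without both libraries called 4.58% and 4.62% of all genes, against 0.728% in the main fit. Edem1 was the only member called there, 2.94% of the members. In every other fit the number for STAT4 KO was 0. For T-bet KO it was 0 to 14, where 14 came without WT Th1 replicate 2, when the knockout is compared with replicate 1 alone and 47.7% of all genes were called. For STAT6 KO and both factor vectors it was 0 in every such fit. The median difference of the control vector from the no-vector culture in WT Th1 was 0.15 with upper-quartile scaling (0.40 as deposited), and that of T-bet KO from WT Th1 replicate 1 was -0.21 with quantile normalization (-0.02 as deposited). The estimate of Sec24d for the GATA3 vector ranged from -0.29 without the STAT6 KO GATA3 vector library to 1.28 without the WT one. The cause was not tested. Of the named members' values with a library left out, 440 kept direction and side of the threshold, 35 lost and 13 gained the call and 1, Sec24d, changed sign; under other settings 216 kept both, 9 lost and 5 gained it. No paired analysis was possible because the labels give no replicate numbers that groups share; the genotype block, added after the data were seen, called 11 members in vector cultures. Depth is known only as an estimate, and 12 of the 13 groups hold 1 library.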
